A study of Mus musculus with 9 samples.

Results

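Paneth cells sit at the base of the small-intestinal crypts and secrete granules of antimicrobial proteins. This account covers 8 genes of that secretory programme in mouse colon: the alpha-defensins Defa24, Defa17, Defa30, Defa3 and Defa35, the lysozyme Lyz1, the matrix metalloproteinase Mmp7 and the secreted phospholipase Pla2g2a. They were taken by symbol from the 55401 entries of the deposited table, and all 8 were among the 14506 entries tested. The 8 were chosen by their FPKM and CPM values in these same libraries, where they were high under high-fat diet. Their values in both comparisons that use those libraries are therefore a description without a test, and a member was tested only between berberine and chow.

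RNA of colonic tissue, labelled wild type, was sequenced in 9 libraries. A chow group with AOM/DSS, a high-fat diet group with AOM/DSS and a berberine group had 3 libraries each. The labels do not spell out AOM/DSS. The letters are commonly used for azoxymethane with dextran sulfate sodium, which together induce colon tumours on an inflamed mucosa. Berberine, an alkaloid from plants, is studied in the series for antitumour action. The labels do not give the diet of the berberine group, whether it received AOM/DSS, the strain, the age or whether each library was 1 animal, so p-values measure only the spread between these libraries.

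In the mouse small intestine, alpha-defensins are made as inactive precursors and stored in Paneth cell granules, where Mmp7 cuts them into active peptides. Lyz1 cleaves bacterial cell walls, and Pla2g2a cleaves bacterial membrane phospholipids. Wnt signals drive the maturation of Paneth cells, and TCF factors, which carry those signals to DNA, bind sites in defensin and Mmp7 genes. The normal mouse colon holds few or no Paneth cells, and its crypt base has other secretory cells in their place.

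The coding ends of the 5 defensins are printed first, because the similarity of the genes limits how far their levels can be told apart. On GRCm38 all 5 lie on the plus strand of chromosome 8, as genes of 2 exons with 282 coding bases. Each line gives the last 108 coding bases, 5′ to 3′, in the second exon, taken from GENCODE annotation. Capitals mark bases that differ from Defa24, which has none.
Defa24: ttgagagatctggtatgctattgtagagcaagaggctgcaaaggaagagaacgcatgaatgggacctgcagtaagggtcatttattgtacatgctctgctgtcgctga
Defa30: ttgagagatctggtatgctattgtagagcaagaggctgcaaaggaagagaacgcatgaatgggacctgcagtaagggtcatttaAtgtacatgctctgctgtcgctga
Defa17: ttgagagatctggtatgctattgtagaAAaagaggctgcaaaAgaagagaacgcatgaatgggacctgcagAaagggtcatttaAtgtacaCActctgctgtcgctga
Defa3: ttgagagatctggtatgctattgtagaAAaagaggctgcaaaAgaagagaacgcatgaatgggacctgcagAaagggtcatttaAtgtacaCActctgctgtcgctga
Defa35: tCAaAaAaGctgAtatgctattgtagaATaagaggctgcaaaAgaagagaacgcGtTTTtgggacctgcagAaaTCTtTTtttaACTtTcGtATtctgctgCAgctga
Within this stretch Defa30 differed from Defa24 at 1 base, Defa17 and Defa3 at 7 each and Defa35 at 28. Over the whole coding sequence Defa17 and Defa3 were identical. Defa24 and Defa30 shared 98.6% of bases, and Defa35 shared between 84.0% and 86.2% with the others.

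The untranslated ends restored part of the difference. Cut into words of 150 bases, the length of a read, the longest transcripts of Defa24, Defa30, Defa35, Lyz1, Mmp7 and Pla2g2a shared no word with any other gene. Only 11.3% of the words of Defa17 and 15.7% of those of Defa3 were found in no other gene. How the authors' counting divided shared reads is not given in the sources used here, so the levels of Defa17 and Defa3 are uncertain against each other.

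Upstream sequence is shown for Defa35 and Defa30, since these 2 defensins were in the RefSeq promoter table and were high together in the same libraries. The table (GRCm38.p6) held 4 of the 8 genes, namely Defa35, Defa30, Mmp7 and Lyz1. Each line gives the 250 bases before the RefSeq start, 5′ to 3′ on the plus strand, at chr8:21064788-21065037 for Defa35 and chr8:21134400-21134649 for Defa30. Capitals mark the TCF motif CTTTGAT, searched on both strands and read here on the other strand.
Defa35: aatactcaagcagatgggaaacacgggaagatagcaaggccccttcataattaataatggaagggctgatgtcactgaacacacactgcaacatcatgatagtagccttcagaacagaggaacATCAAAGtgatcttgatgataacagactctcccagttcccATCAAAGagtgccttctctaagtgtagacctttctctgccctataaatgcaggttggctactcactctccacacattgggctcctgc
Defa30: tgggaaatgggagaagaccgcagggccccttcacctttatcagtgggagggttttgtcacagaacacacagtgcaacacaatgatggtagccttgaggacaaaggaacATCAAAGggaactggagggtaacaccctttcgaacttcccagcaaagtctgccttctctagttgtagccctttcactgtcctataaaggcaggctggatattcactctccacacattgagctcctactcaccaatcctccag
Defa35 held the motif 127 and 87 bases before its start, and Defa30 held it once, at 142. The box TATAAA lay closer to the start, 46 bases before it in Defa35 and 61 in Defa30, and overlapped no TCF match. In Mmp7 the TCF motif lay 4 bases after the first of its 2 listed starts and TATAAA at 123 and 26 bases before it. Lyz1 held neither in its window.

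Matches were dense in the defensin family as a whole. The TCF motif was in 3.73% of all 32851 promoter windows of 300 bases and in 13 of the 16 defensin windows. A second match was found in 33 windows of all (0.1%), 9 of which belonged to defensins. TATAAA was in 13.6% of all windows and in 15 of the 16. The defensin windows are not separate cases. The 250 upstream bases were identical in Defa21 and Defa22, in Defa23 and Defa31, in Defa36 and Defa37 and in Defa2 and Defa20. The motif did not separate defensins that were counted in these libraries from those that were not. It was in 7 of 8 with a count and in 6 of 8 at 0 in every library. A count of 0 is uncertain where reads are shared, so this does not compare expressed with silent genes. Of those at 0, Defa2, Defa42, Defa20, Defa32 and Defa43 had at most 5.04% of their 150-base words in no other gene. Counted Defa31, Defa37 and Defa36 were about as low, at 0% to 6.27%. A match is a string of letters and no evidence of binding.

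Library totals ran from 51961764 to 69007117 estimated counts. Low counts piled up at multiples of 4, so 1 fragment appears to be worth about 4 counts. A count of 0 in a group of 3 libraries is therefore read against a limit of 3 fragments in the group as a whole (12 counts), which covers counting error only. Levels between genes are compared in FPKM, which divides by gene length, and levels between groups in CPM, which does not. Chow replicate 2 stood apart from the other chow libraries in colon position markers. Car1, a carbonic anhydrase of the proximal colon, was at 4557 CPM there against 692 and 292 CPM, and Hoxd13, a posterior Hox gene, at 4.64 CPM against 174 and 271 CPM.

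The 5 defensins were not detected in the chow libraries at this depth and were present in every high-fat diet library. Defa24, one of the precursors that Mmp7 cuts (ENSMUSG00000064213, chromosome 8, 21734494 to 21735471), had 0 counts in all 3 chow libraries. In the high-fat diet libraries it stood at 35.9, 74.1 and 84.4 CPM in replicates 1 to 3, and in the berberine libraries at 0, 0.0596 and 0 CPM. Replicate 1 was the lowest of the high-fat diet libraries, and the groups did not overlap. Counted against that limit, Defa24 was at least 983-fold higher in high-fat diet than in chow.

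Defa30 (ENSMUSG00000074444, 21134642 to 21135598), the closest relative of Defa24 among the 5, went the same way at a lower level. It had 0 counts in chow, 22.8, 44.9 and 56.8 CPM in high-fat diet, and 0, 0.0298 and 0 CPM in berberine. High-fat diet replicate 1 was again the lowest and replicate 3 the highest. The level was at least 630-fold higher in high-fat diet than in chow.

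Defa17 (ENSMUSG00000060208, 21655780 to 21656735) and Defa3 (ENSMUSG00000074440, 21287409 to 21288377) encode the same precursor in the reference genome. Defa17 had 0 counts in chow, 24.6, 53.4 and 65.7 CPM in high-fat diet, and 0.116, 0.119 and 0 CPM in berberine. Defa3 had 0 counts in chow, 19.4, 40.6 and 46.6 CPM in high-fat diet, and 0.0775, 0.0893 and 0 CPM in berberine. Both followed the order of Defa24 across the high-fat diet libraries. In berberine their traces came from the same 2 libraries and amounted to 14 and 10 counts in all, about 3 fragments each. Against chow, high-fat diet was at least 726-fold higher for Defa17 and at least 539-fold higher for Defa3, with the reservation on shared reads.

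Defa35 (ENSMUSG00000061845, 21065038 to 21065996), the most divergent of the 5, also differed in its spread. It had 0 counts in all 6 chow and berberine libraries and 23.5, 26.5 and 26.4 CPM in high-fat diet. The 3 high-fat diet libraries were nearly level, with the highest 1.13 times the lowest, whereas the other 4 defensins spread by 2.35 to 2.67 times. Defa35 was at least 386-fold higher in high-fat diet than in chow and at least 380-fold lower in berberine than in high-fat diet.

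**Figure D1:**
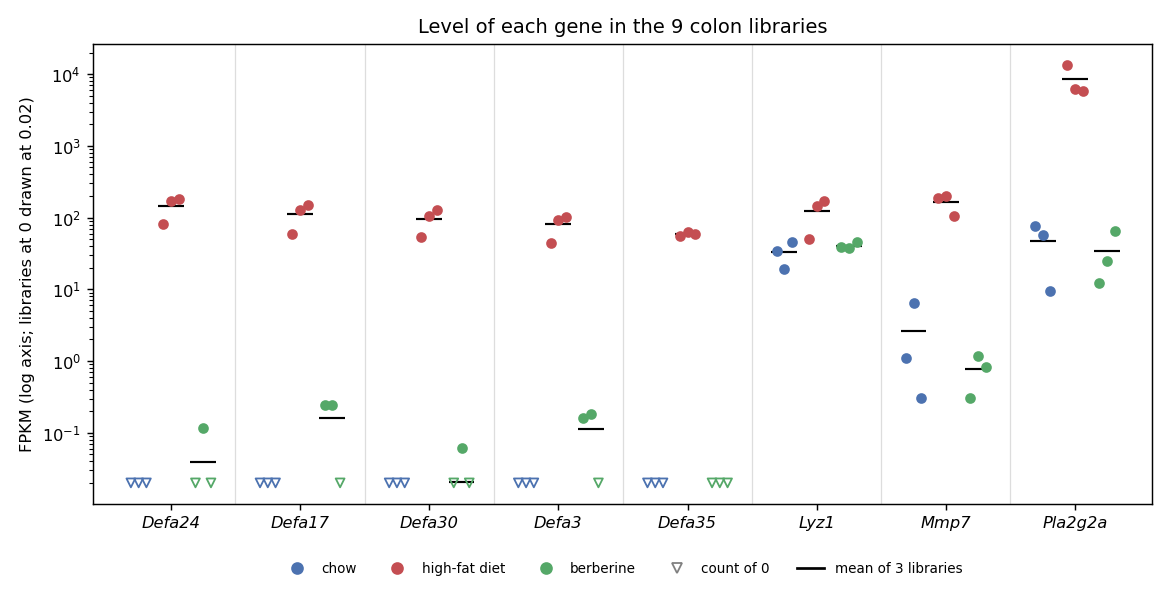
FPKM of each gene (log axis) in the 9 libraries; dots are libraries coloured by group, bars are means of 3 libraries and open triangles mark a count of 0. The 5 defensins have 0 counts in all chow libraries and 44.6 to 182 FPKM in the high-fat diet libraries, while Lyz1 has 19.2 to 46.4 FPKM in chow and Pla2g2a reaches 13472 FPKM.

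Unlike the defensins, Lyz1 was well measured in every library. This gene encodes the lysozyme of Paneth cells (ENSMUSG00000069515, chromosome 10, 117287797 to 117292868, minus strand). It stood at 48.2, 29.9 and 67.1 CPM in chow, at 68.4, 192 and 241 CPM in high-fat diet and at 55.1, 53.9 and 68.8 CPM in berberine. High-fat diet replicate 1 lay just above the highest chow library and just below the highest berberine library, so high-fat diet overlapped berberine but not chow. The mean was 48.4 ± 18.6 CPM in chow and 167 ± 88.9 CPM in high-fat diet (SD, n = 3 each), a ratio of 3.45, against 59.3 ± 8.25 CPM in berberine (SD, n = 3).

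Mmp7, the protease that activates the defensin precursors (ENSMUSG00000018623, chromosome 9, 7692090 to 7699585), was low but detected outside the high-fat diet group. It stood at 1.32, 8.45 and 0.384 CPM in chow, at 216, 221 and 123 CPM in high-fat diet and at 0.368, 1.44 and 1.05 CPM in berberine. Chow replicate 2 was the highest of the 6 low libraries and had no defensin count. The ratio of means was 55.1 between high-fat diet and chow, and the fitted log2 difference moved from 5.80 to 7.79 without chow replicate 2. The ratio of means was 195 between high-fat diet and berberine.

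Pla2g2a (ENSMUSG00000058908, chromosome 4, 138831857 to 138835186) was the most abundant of the 8. It stood at 80.9, 64.9 and 9.96 CPM in chow, at 13280, 6125 and 5987 CPM in high-fat diet and at 12.7, 26.6 and 71.9 CPM in berberine. Chow replicate 3 and berberine replicate 1 were the lowest, and high-fat diet lay above all other libraries. The ratio of means was 163 against chow and 228 against berberine. By FPKM it ranked 1, 3 and 12 of all entries in high-fat diet replicates 1, 2 and 3. The deposited table types Pla2g2a both as protein coding and as a polymorphic pseudogene. As background, some inbred mouse strains carry a disrupted copy.

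For all 8 genes each high-fat diet library lay above every chow library, as did 23.2% of all 14506 tested entries. For 7 of the 8, all but Lyz1, each berberine library lay below every high-fat diet library, as did 25.6% of tested entries. The choice of the genes fixed both counts, and nothing is read from them.

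Between the genes, levels in the high-fat diet group were ordered by FPKM. The mean of 3 libraries was 8524 FPKM for Pla2g2a, 164 for Mmp7, 144 for Defa24, 123 for Lyz1, 112 for Defa17, 96.7 for Defa30, 80.5 for Defa3 and 59.5 for Defa35. Only the step from Pla2g2a to Mmp7 left no overlap between neighbours in that order. Within each library the order Defa24, Defa17, Defa30, Defa3 held in all 3. In chow the order was Pla2g2a, Lyz1 and Mmp7 (47.7, 33.1 and 2.60 FPKM), and in berberine Lyz1, Pla2g2a and Mmp7 (40.7, 34.2 and 0.767 FPKM), with Pla2g2a and Lyz1 overlapping in both.

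The 8 genes did not rank the high-fat diet libraries alike. From replicate 1 to replicate 3 the CPM of Defa24 differed by a factor of 2.35 and that of Lyz1 by 3.53, both higher in replicate 3. Pla2g2a and Mmp7 ran the other way, with ratios of 0.451 and 0.569. The summed defensin FPKM per FPKM of Pla2g2a was 0.0301, 0.115 and 0.136 in replicates 1, 2 and 3, and per FPKM of Mmp7 it was 2.13, 3.67 and 7.63. Replicate 3 held most of Defa24, Defa17, Defa30 and Defa3, while replicate 2 held most of Mmp7 and, by a small margin, of Defa35. These are single libraries, and bulk tissue cannot tell fewer cells of a type from less RNA per cell.

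Beyond the 5 genes, the table held 40 other entries of the family, 23 of them coding and 17 pseudogenes, of which 16 had a count in any library and 24 none. No defensin of any kind had a count in a chow library. In the high-fat diet libraries 13, 18 and 16 of the 45 entries were counted, with 405, 722 and 793 FPKM summed in replicates 1, 2 and 3. In berberine 2, 5 and 0 entries were counted, with 0.401, 0.801 and 0 FPKM summed. The 5 described genes made up 72.3%, 77.5% and 78.6% of the family's FPKM in the high-fat diet libraries. The share of Defa35 was 13.7%, 8.74% and 7.55%.

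Of the other entries 7 were tested, having passed through the high-fat diet group alone. By edgeR 5 of the 7 rose against chow and 5 of 7 fell in berberine against high-fat diet. Over all entries tested, 15.2% rose and 14.9% fell in those comparisons, but a gene that passes a filter only where it is high is bound to differ. Defa31 stood at 9.76, 15.8 and 23.6 CPM in high-fat diet, Defa23 at 7.62, 12.9 and 17.3 CPM. Both followed the order of Defa24. Defa5 stood at 14.2, 13.2 and 11.1 CPM and Defa34 at 9.95, 8.88 and 10.9 CPM, both nearly level like Defa35. Sequence overlap limits these as well: 0% of the words of Defa31, 13.0% of those of Defa23, 30.8% of those of Defa5 and 30.5% of those of Defa34 were found in no other gene.

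Shared sequence was not limited to the uncounted genes. Of the 28 coding entries, the 12 at 0 had a median of 40.2% of words found in no other gene, and the 16 with a count had 60.05%. Defa41, Defa27 and Defa39 shared no word with another gene and were at 0 in all 9 libraries. These 3 were named after their values had been seen.

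**Figure D2:**
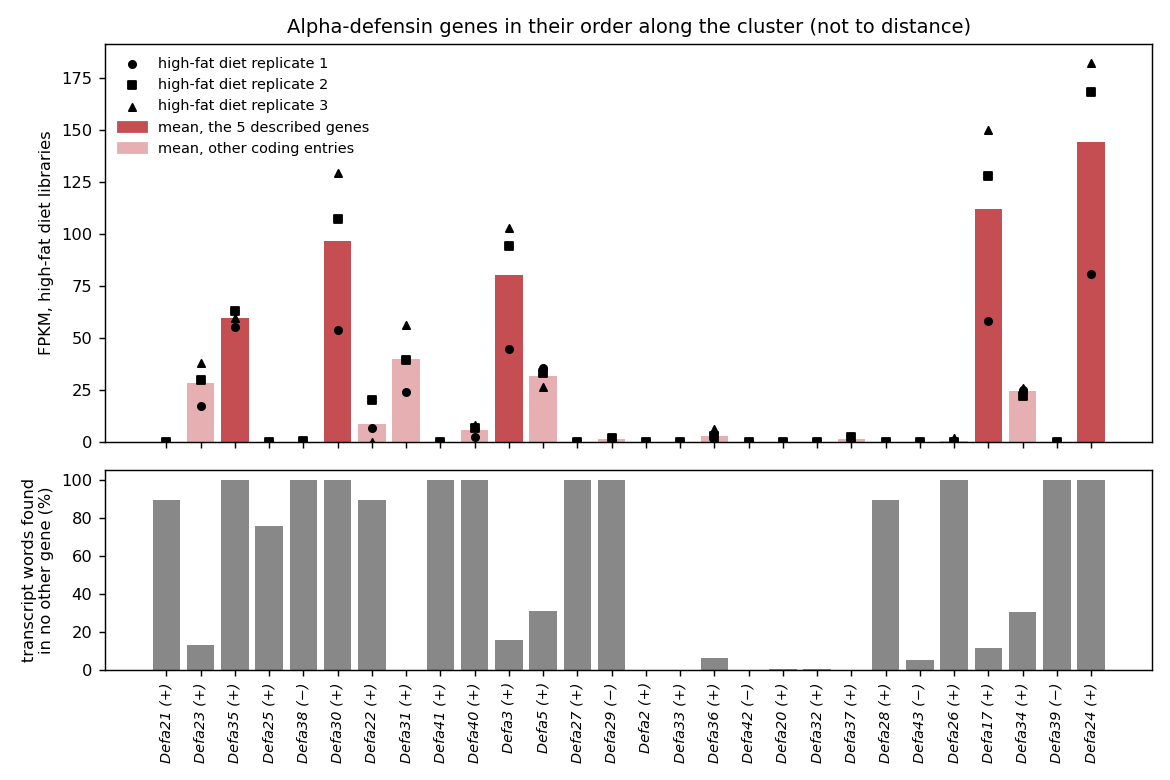
Top, FPKM of the 28 coding alpha-defensin entries in the high-fat diet libraries, in their order along the chromosome, with strand after each name; bars are means of 3 libraries and symbols are libraries. Bottom, the percent of 150-base words of each gene's longest transcript found in no other gene, which is 100% for Defa24, Defa30 and Defa35 and 11.3% and 15.7% for Defa17 and Defa3.

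By likeness of pattern, the genes nearest the mean of the 5 defensins included 2 of their own family. Likeness was the Pearson r of log2(CPM + 1) over the 9 libraries, ranked over 12544 genes and given without a test. The first 8 were Defa23 (0.9987), Defa31 (0.9983), the claudin Cldn6 (0.9979), the pseudogene Rpl19-ps3 (0.9964), the lipoxygenase Alox12e (0.9955), Tmtc4 (0.9953), the keratin Krt35 (0.995) and Ralgps1 (0.9949). Cldn6 had 0 counts in chow and berberine and 8.91, 10.5 and 11.0 CPM in high-fat diet. Among the partners r was 0.954 for Mmp7, 0.95 for Pla2g2a and 0.833 for Lyz1. All these values rest on the same split of high-fat diet from the other 6 libraries, and 19 genes had an r above 0.99.

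Berberine was compared with chow by edgeR, the comparison whose difference the choice of the genes did not use. Its spread was still estimated over all libraries, including the high-fat diet ones. None of the 8 was called at an adjusted p under 0.05, where 0.0483% of all tested entries (7 of 14506) were. For the defensins, at or near 0 counts in both groups, the absence of a call says little. Lyz1 differed by 0.29 ± 0.44 on the log2 scale (SE, edgeR adjusted p = 0.843), Mmp7 by -1.80 ± 0.96 (adjusted p = 0.531) and Pla2g2a by -0.49 ± 0.80 (adjusted p = 0.859). Groups overlapped for all 3. Without chow replicate 2 the Mmp7 difference turned to 0.19 (edgeR adjusted p = 0.943). These standard errors leave room for sizeable differences in either direction.

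The defensins were at or near that limit in both groups. Their summed counts over 3 berberine libraries were 4 for Defa24, 14 for Defa17, 2 for Defa30, 10 for Defa3 and 0 for Defa35, against 0 in chow. By edgeR 2 of the 8, Defa17 and Defa3, had an unadjusted p under 0.05, as had 10.9% of all tested entries (1579 of 14506). DESeq2's Wald test called 1 of 8, Defa17 (adjusted p = 0.029, DESeq2), and limma on log2(FPKM + 1) called 0. The 14 counts of Defa17 are just above the limit of 12, so no change is read from that call.

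Berberine and high-fat diet values of the defensins stand side by side without a test. With counts taken as fragments and rounded up to whole ones, the ratio of high-fat diet to berberine was 2832 for Defa24 (95% counting interval 508 to 111879). It was 1816 for Defa30 (326 to 71774), whose 2 berberine counts came to 0.5 fragment before rounding. The ratio of mean CPM, without rounding, was 4182 for Defa30 and 3264 for Defa24. By fragments it was 522 for Defa17 (204 to 1919) and 518 for Defa3 (177 to 2513). The intervals are wide because they rest on 1 to 4 berberine fragments. They cover counting error only, with fragments pooled over the libraries of a group, and leave out the spread between libraries. The choice of the genes by their high-fat diet values fixed the direction, so the intervals are no test of a difference.

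Paneth cell granules hold other proteins as well. Of 11 genes listed for them 10 were tested, 2 rose and 0 fell by edgeR in high-fat diet against chow. Nupr1, counted among the 10, encodes a nuclear protein and not a granule protein. Of all tested entries 31.8% changed, 15.2% upward and 16.6% downward. The median log2 difference of the 10 was 0.38, against 0.002 over all entries. Pnliprp2, a lipase of the pancreatic lipase family, stood at 2.19, 2.62 and 2.63 CPM in chow and at 770, 158 and 163 CPM in high-fat diet. It rose by 7.20 ± 0.81 on the log2 scale (edgeR adjusted p = 0.000548). Habp2, a secreted protease, differed by 3.66 ± 0.74 (edgeR adjusted p = 0.00672). Its mean was 0.254 FPKM over the other 6 libraries and 2.59 FPKM in high-fat diet. Habp2 thus reached the minimum of 1 FPKM through the high-fat diet group alone and was bound to differ, so its call is no support.

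Calls on some of the antimicrobial genes of this list turned on 1 chow library. The ribonuclease Ang4 stood at 2.91, 101 and 0 CPM in chow and at 56.7, 61.8 and 15.3 CPM in high-fat diet. The lectin Itln1 stood at 2.84, 203 and 0.531 CPM in chow and at 78.6, 189 and 156 CPM in high-fat diet. For both, chow replicate 2 lay above every high-fat diet library, and this library had 0 defensin counts. The pentraxin Mptx1 was at 335 CPM there against 18.5 and 3.69 CPM, and at 48.1, 5.62 and 1.09 CPM in high-fat diet. Without chow replicate 2, 5 of the 10 rose instead of 2, with Itln1 at 6.39 (edgeR adjusted p = 0.00444) and the lectin Reg3b at 8.34 (edgeR adjusted p = 0.00966). Ang4, Mptx1 and Mptx2 were still not called (edgeR adjusted p = 0.0961, 0.8 and 0.748). Outside the high-fat diet group, Reg3b was at most 0.179 FPKM once chow replicate 2 was left out. It was then high in high-fat diet alone and bound to differ, so its call is no support. The part played by the position of that sample along the colon was not tested.

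In berberine against high-fat diet, 3 of the 10 granule genes fell and 0 rose. Of all tested entries 30.7% changed there, 15.8% upward and 14.9% downward. The 3 include Habp2, which passed the filter through the high-fat diet group alone and was bound to differ here as well. Itln1, at 0.465, 0.864 and 2.24 CPM in berberine, fell by 6.88 on the log2 scale (edgeR adjusted p = 0.0326). Leaving out single libraries moved the count between 1 and 7. It was 7 without chow replicate 2 and 1 without berberine replicate 1 or 2. The Itln1 call was lost without any 1 of the high-fat diet or berberine libraries, with adjusted p from 0.0508 to 0.107 by edgeR. Against chow, 0 of the 10 were called by edgeR, where 0.0483% of all tested entries were, and at most 2 by any other setting. By edgeR 6, Nupr1 among them, passed an unadjusted p under 0.05, where 10.9% of all tested entries did. All 6 were lower in berberine. For Ang4, Itln1, Mptx1, Reg3b and Nupr1, chow replicate 2 lay far above the other chow libraries. Nupr1 was at 443 CPM there against 87.2 and 66.1 CPM, and Reg3b at 33.5 CPM against 0.098 and 0 CPM. No change is read from this count.

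**Figure D3:**
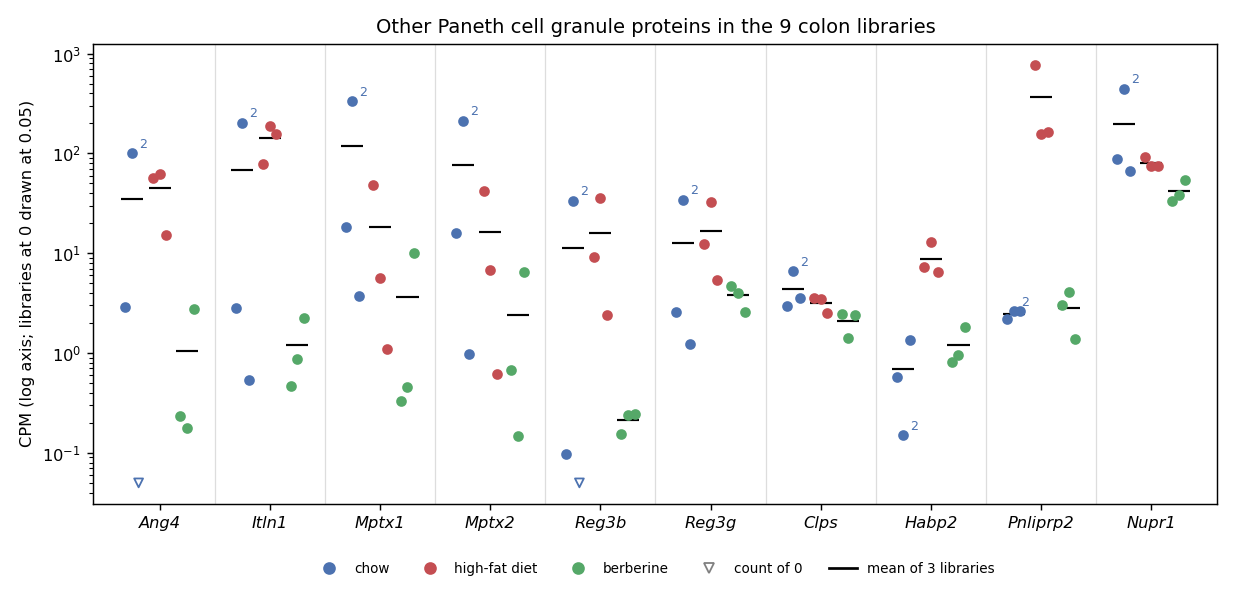
CPM (log axis) of the 10 tested genes of the granule list, Nupr1 included, in the 9 libraries. Dots are libraries, bars are means of 3 libraries, and the 2 marks chow replicate 2. That library reaches 101 CPM for Ang4, 203 for Itln1 and 335 for Mptx1, above all high-fat diet libraries, while Pnliprp2 and Habp2 separate high-fat diet from chow.

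Factors of the Paneth lineage moved in both directions. Of 14 tested, 3 rose and 5 fell in high-fat diet against chow by edgeR, where 15.2% of all tested entries rose and 16.6% fell. Leaving out 1 library gave 2 or 3 that rose and 4 or 5 that fell. Among those counted, Ephb2 (higher) and Gfi1 (lower) lost their calls without high-fat diet replicate 2 or 3, and in other settings. Sox9, a transcription factor that Paneth cells need, rose from 31.7, 49.7 and 41.1 CPM to 112, 99.3 and 88.1 CPM (1.29 ± 0.28 on the log2 scale, edgeR adjusted p = 0.00988). Ephb3, a receptor that places Paneth cells at the crypt base, rose by 0.87 ± 0.13 (edgeR adjusted p = 0.00209). Atoh1, the factor that commits crypt cells to all secretory fates, fell from 53.9, 76.4 and 43.7 CPM to 12.0, 12.0 and 7.02 CPM (-2.49 ± 0.28, edgeR adjusted p = 0.00055). The fibroblast growth factor receptor Fgfr3 changed by -2.74 ± 0.24 (edgeR adjusted p = 0.000218) and the Wnt receptor Fzd5 by -1.59 ± 0.31 (edgeR adjusted p = 0.00607). Groups did not overlap for any of these 5. Sox9 and Ephb3 lay apart upward, as did 23.2% of all tested entries. Atoh1, Fgfr3 and Fzd5 lay apart downward, and the share of all entries that did so is not given here. All of the 5 but Sox9 were named for a small p in their list, so nothing is read from the separation.

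In berberine against high-fat diet the lineage list had 4 genes higher and 3 lower, where 15.8% of all tested entries were higher and 14.9% lower. Atoh1 stood at 58.2, 58.0 and 75.7 CPM in berberine and Ephb3 at 30.2, 31.8 and 27.9 CPM. Leaving out high-fat diet replicate 2 or berberine replicate 2 reduced the 3 to 1. Against chow 0 of 14 were called by edgeR, where 0.0483% of all tested entries were, and 0 by every other setting. At that share a count of 0 says little. By edgeR 3 had an unadjusted p under 0.05, as had 10.9% of all tested entries.

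Wnt targets of the crypt base all moved together. These 10 genes overlap a list already seen to rise in these libraries, so they are no separate support. All 10 rose against chow and all 10 fell in berberine against high-fat diet by edgeR, under every setting run. Over all tested entries 15.2% rose and 16.6% fell against chow, and 14.9% fell in berberine against high-fat diet. Of the 10, Notum, Lgr5, Sp5 and Lef1 reached the minimum of 1 FPKM through the high-fat diet group alone and were bound to differ. Notum, a secreted inhibitor of Wnt, stood at 0.882, 0.396 and 0.162 CPM in chow, at 386, 225 and 276 CPM in high-fat diet and at 0.233, 0.67 and 0.264 CPM in berberine. Replicate 1 was its highest high-fat diet library, as for Pla2g2a and unlike Defa24. The niche ligands of Paneth cells were split: of 3 tested, the growth factor Tgfa rose (1.15 ± 0.20, edgeR adjusted p = 0.00357), the Notch ligand Dll1 fell (-0.87 ± 0.21, edgeR adjusted p = 0.0142) and Dll4 rose (0.79 ± 0.21, edgeR adjusted p = 0.0208). The Dll4 call was lost without chow replicate 1 or high-fat diet replicate 2 or 3 (edgeR adjusted p from 0.0542 to 0.0655).

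Deep crypt secretory cells take the place of Paneth cells in the colon. Of 7 genes listed for them and tested, 4 fell and 0 rose in high-fat diet against chow, where 16.6% of all tested entries fell. In berberine against high-fat diet 4 rose and 0 fell, where 15.8% of all tested entries rose. Settings other than leaving out a library gave 3 to 6 that fell against chow. The list holds genes of mucus cells at large, such as Agr2 and Muc2, so its counts do not measure deep crypt secretory cells alone. Agr2, an endoplasmic reticulum isomerase of mucus cells, went from 747, 1447 and 489 CPM in chow to 203, 172 and 99.5 CPM in high-fat diet (-2.50 ± 0.42 on the log2 scale, edgeR adjusted p = 0.00317). The trefoil peptide Tff3 went from 1008, 716 and 1032 CPM to 348, 267 and 124 CPM (-1.90 ± 0.36, edgeR adjusted p = 0.00515). Both were lowest in high-fat diet replicate 3, the library with the most Defa24. Without high-fat diet replicate 2 or berberine replicate 2 or 3, the 4 that rose in berberine became 2.

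**Figure D4:**
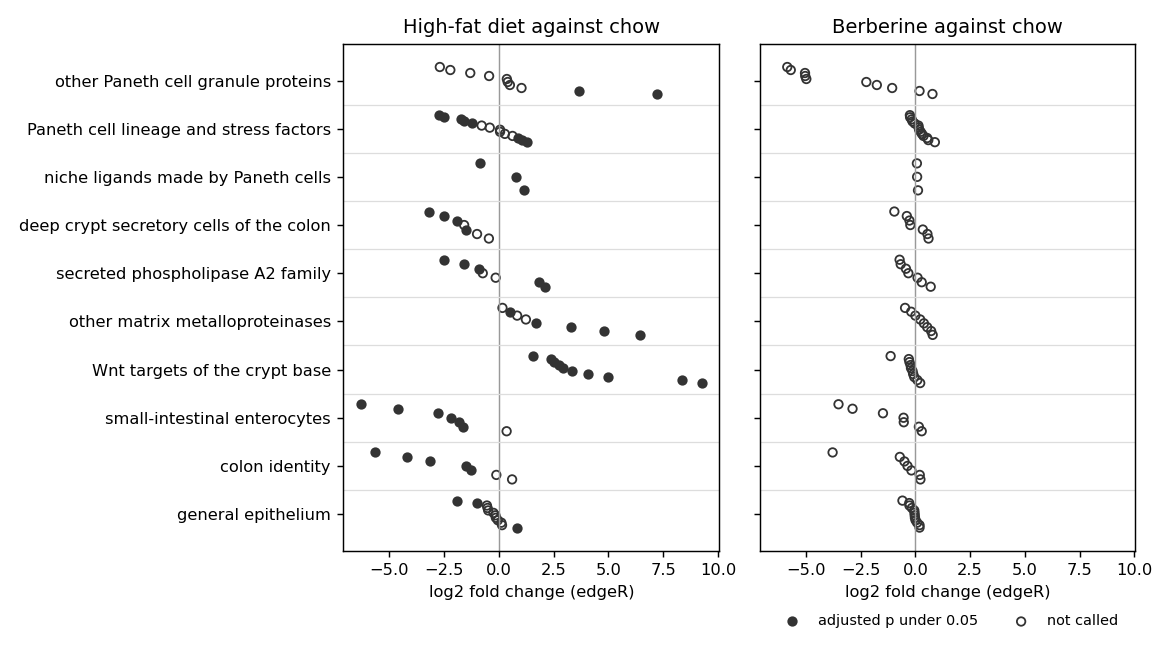
Log2 fold changes of the tested genes of 10 lists in high-fat diet against chow and in berberine against chow; each dot is a gene, filled where the edgeR adjusted p was under 0.05. In high-fat diet all 10 Wnt targets are filled on the right and 4 of 7 deep crypt secretory genes on the left. No gene of these lists is filled for berberine against chow, where 0.0483% of all tested entries were called.

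Relatives of the 3 partners were counted for comparison. Lyz2, the lysozyme of macrophages and the only other lysozyme tested, stood at 468, 386 and 645 CPM in chow and at 540, 315 and 268 CPM in high-fat diet (-0.42 ± 0.28, edgeR adjusted p = 0.292). It ran opposite to Lyz1 across the high-fat diet libraries, with a ratio of 0.496 between replicates 3 and 1. Of 9 macrophage genes tested, 2 rose in high-fat diet against chow, where 15.2% of all tested entries rose. That count moved from 0 without chow replicate 1 or 2 to 4 without chow replicate 3. Of the 2, Fcgr1 was tested through its level in high-fat diet alone.

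Of 7 other secreted phospholipases tested, 2 rose and 3 fell in high-fat diet against chow, where 15.2% of all tested entries rose and 16.6% fell. Pla2g12a rose from 13.7, 17.6 and 17.3 CPM to 68.1, 46.9 and 55.6 CPM (1.81 ± 0.18, edgeR adjusted p = 0.000359). The count of 3 includes Pla2g12b, which was tested through its level in chow alone. Pla2g3 fell from 34.9, 29.0 and 11.3 CPM to 3.98, 4.74 and 4.54 CPM (-2.50 ± 0.38, edgeR adjusted p = 0.00197). Of 8 other matrix metalloproteinases tested, 5 rose and 0 fell, with a median log2 difference of 1.46. Mmp10, a stromelysin, stood at 314, 95.4 and 12.7 CPM in high-fat diet and at 0.738 to 2.11 CPM in chow (6.45 ± 1.1, edgeR adjusted p = 0.0033). Of the 5 that rose, Mmp10 and Mmp9 reached the minimum of 1 FPKM through the high-fat diet group alone, with 0.926 and 0.972 FPKM on average in the other 6 libraries, and were bound to differ. Mmp14, a membrane-bound member, rose by 1.70 ± 0.23 (edgeR adjusted p = 0.00118). Like Mmp7, Mmp10 and Mmp14 were lowest in high-fat diet replicate 3.

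Markers of other cell types were read beside the defensins. Small intestine is where these defensins are normally made. Of its 7 tested enterocyte genes 6 fell and 0 rose in high-fat diet against chow, where 16.6% of all tested entries fell. Of the 6, Alpi reached the minimum of 1 FPKM through chow alone. With filterByExpr as the filter, or with no filter, 2 listed enterocyte genes rose against chow. Under the same settings 2 fell in berberine against high-fat diet. Summed over 18 listed genes, the level was 23.1 to 29.9 FPKM in high-fat diet, 80.5 to 463 FPKM in chow and 47.5 to 75.4 FPKM in berberine. In the high-fat diet libraries the defining markers Sis and Lct were at most 0.275 CPM, Fabp1 at most 0.189 CPM and Gata4 at most 0.374 CPM. Onecut2 and Cubn, under a mean of 1 FPKM over all 9 libraries and so not tested in the main fit, were the exceptions. Onecut2 stood at 47.0, 43.0 and 27.9 CPM in high-fat diet and at most 0.625 CPM elsewhere, and Cubn at 24.3, 17.8 and 31.8 CPM against at most 3.60 CPM.

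Of 7 colon markers tested, 5 fell and 0 rose in high-fat diet against chow, where 16.6% of all tested entries fell and 15.2% rose. Hoxa13, a posterior Hox gene, went from 71.0, 44.4 and 76.7 CPM to 27.4, 27.3 and 25.8 CPM (-1.26 on the log2 scale, edgeR adjusted p = 0.0022). Of 12 general epithelial genes tested, 1 rose and 2 fell, and their sum was 4844 to 6379 FPKM in high-fat diet and 6100 to 7375 FPKM in chow. Neutrophils hold granule antimicrobials of their own, and their granule genes Elane, Ngp and Camp were at 0 in all high-fat diet libraries. Of 5 neutrophil genes tested 3 rose against chow, and 0 did without chow replicate 1, chow replicate 2 or high-fat diet replicate 2. Of the 3, S100a8 and Csf3r were tested through their level in high-fat diet alone. Pancreatic acinar genes summed to 26.5 to 38.3 FPKM in high-fat diet and 20.7 to 61.0 FPKM in chow. Squamous genes summed to 47.1 to 87.0 FPKM in high-fat diet, 149, 1.02 and 6.38 FPKM in chow and 2.85 to 10.0 FPKM in berberine. Their part in the defensin values was not tested.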

How the data were processed

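Libraries were stranded poly(A) RNA-seq with molecular identifiers, per the labels' protocols. Every library has 2 columns per the file headers, 1 of estimated counts and 1 of FPKM. In the deposited table FPKM is listed at 0.0001 where the count is 0, which was read as 0. The tools named in the submitters' processing notes, with no step given, are StringTie 1.3.4d, HISAT2 2.0.4, cutadapt 1.9, UMI-tools, edgeR and DESeq2, and the build is GRCm38.

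The estimated counts of all 9 libraries were fitted by edgeR 4.0.16 (quasi-likelihood, TMM scaling, no covariates) in R 4.3.3 over the 14506 entries with a mean of at least 1 FPKM. A gene is called, or said to rise or fall, at a Benjamini-Hochberg adjusted p under 0.05 over all of them. CPM is on TMM-scaled library sizes. DESeq2 1.42.0, limma 3.58.1, other filters and scalings, a replicate block and leaving out each library were alternatives.

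The 8 genes and the other gene lists were chosen with earlier results of these data known. Named genes are the 8, counted defensins, up to 4 genes per list with the smallest p plus defining markers, and the 8 most alike in pattern. Genes that reached the filter through 1 group alone (a mean under 1 FPKM over the other 6 libraries) were looked for, and are named, after their values had been seen. Genes of macrophage, neutrophil, squamous, pancreatic and general epithelial lists are given mainly by counts and sums. Replicate numbers were not taken as pairs, since correlations of same-numbered deviations ran from -0.096 to 0.163. No 2 libraries held the same values. Protein sequences were not analysed here.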

Additional observations from a re-analysis of the deposited data

How the results depend on the processing

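Across the alternatives, none of the 8 genes changed direction in high-fat diet against chow or in berberine against high-fat diet. The choice of the genes by their high-fat diet values fixed those directions, so this is no support. Between berberine and chow, 148 of 150 values kept direction and side of the threshold, which says little for the defensins, at or near 0 counts in both groups. The exceptions were Defa17 by DESeq2 and Mmp7, which ran from -2.33 to 0.19 and was highest without chow replicate 2. The fitted log2 values of the defensins depend on the prior count, ranging for Defa35 from 5.92 to 13.69 against chow, so only bounds are given.

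The entries called between berberine and chow numbered 7, and 2 with DESeq2 size factors, limma on log2(FPKM + 0.1), the filterByExpr filter, counts divided by 4 or only those 2 groups. DESeq2's Wald test called 380 (177 higher, 203 lower), and leaving out 1 library gave 1 to 7. With the replicate as a block 2 were called there, against 4344 for high-fat diet against chow and 4286 for berberine against high-fat diet, and no call on the 8 genes between berberine and chow changed. Leaving out 1 library gave 3573 to 4325 calls for high-fat diet against chow and 2960 to 4743 for berberine against high-fat diet, the lowest without berberine replicate 2. Scaling by library totals alone turned 2199 higher and 2414 lower calls against chow into 2807 and 1890, and moved the median log2 difference of all entries to 0.13. By limma the split was 2938 and 1923 on log2(FPKM + 1) and 2809 and 1926 on log2(FPKM + 0.1). Berberine against high-fat diet went from 2292 higher and 2168 lower to 1864 and 2689, 1859 and 2684, and 1863 and 2574 under the same 3 settings. The cause of these moves was not tested.

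Leaving out 1 library also turned directions among granule genes that were not called. Against chow, the log2 difference ran from -0.21 to 4.96 for Ang4, from -5.15 to 0.74 for Mptx1, from -4.38 to 0.98 for Mptx2, from -0.95 to 8.34 for Reg3b and from -0.51 to 3.14 for Reg3g, with the highest value of each without chow replicate 2. Mptx1 ran from -5.53 to 0.14 in berberine against high-fat diet. Depth limits the defensins in chow and berberine, where 12 counts in a group could not be told from 0.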
